A study of Homo sapiens with 6 samples.

Results

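The genes described here are 10 effectors and targets of the Hippo pathway, chosen by symbol from a table of 24789 genes and assembled loci. They are the coactivators YAP1 and WWTR1 (which encodes TAZ), their DNA-binding partners TEAD1, TEAD2, TEAD3 and TEAD4, the kinases LATS1 and LATS2, and the targets AMOTL2 and ANKRD1. Each of the 10 symbols was found, and each gene passed the filter on low counts. RNA sequencing measured them in LX-2, an established human line of hepatic stellate cells, which lay down scar matrix in injured liver. One group received 50 nM of an siRNA against AEBP1 for 48 hours and is labelled as an AEBP1 knockdown. The other received 50 nM of a scrambled siRNA for the same time and is labelled wild type. Both groups were transfected with a lipid reagent and grown in medium with serum. Each group had 3 libraries, and the labels do not say whether these came from separate cultures, so the spread behind each p-value may be purely technical.

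In the Hippo pathway, the kinases MST1 and MST2 activate LATS1 and LATS2, which phosphorylate YAP and TAZ and hold them in the cytoplasm. Unphosphorylated YAP and TAZ enter the nucleus, bind TEAD factors and switch on growth and matrix genes, some of which encode inhibitors of the pathway itself. In hepatic stellate cells YAP is known to become active when the cells turn into scar-forming myofibroblasts or grow on a stiff surface. Much of this control acts on protein phosphorylation and location, which RNA levels do not measure.

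AEBP1 itself went against the labels in 2 libraries. Its level was 29.7, 27.7 and 48.3 CPM (a count rate adjusted for library size and composition) in AEBP1 siRNA 1, 2 and 3, against 53.6, 48.7 and 25.1 CPM in scrambled 1, 2 and 3. By edgeR's quasi-likelihood test, its log2 fold change (AEBP1 siRNA over scrambled) was -0.27 (95% interval -0.97 to 0.43, adjusted p = 0.991). A knockdown was thus not detected between the groups as labelled. Without replicate 3 of both groups that fold change was -0.83 (unadjusted p = 0.00102, edgeR adjusted p = 0.378). Those 2 libraries were left out because of their AEBP1 values, so this fit cannot test the knockdown. The library labelled scrambled 3 was the lowest of the 6, and the library labelled AEBP1 siRNA 3 was above both others labelled AEBP1 siRNA. Group differences below therefore refer to libraries as labelled, and those of the 10 genes are also given without replicate 3 of both groups. The library labelled AEBP1 siRNA 1 stood apart on the first principal component, with a score of -65.9 where the other 5 lay between 5.74 and 17.3, and those differences are given without it as well. Total counts ran from 34433510 to 49432960 per library. Vimentin (VIM) and type I collagen (COL1A1) were abundant, at means of 552 and 201 FPKM (fragments scaled to transcript length and library size). COL1A2, the partner chain of COL1A1, averaged 0.690 FPKM, and the stellate cell genes DES, DCN, LUM, LRAT, HGF and GFAP were below the filter on low counts. Of markers of other liver cells, 1 of 9 for hepatocytes, 4 of 7 for epithelial cells, 3 of 7 for leukocytes and 3 of 7 for endothelial cells passed that filter. Their summed levels across the 6 libraries were 2.11 to 4.14 FPKM for hepatocytes, 113 to 158 FPKM for epithelial cells, 9.20 to 12.4 FPKM for leukocytes and 0.231 to 0.430 FPKM for endothelial cells. KRT18 and KRT8, keratins that cultured mesenchymal lines can also make, led the epithelial list at means of 95.5 and 15.7 FPKM. CD68 and CD14 led the leukocyte list at 9.93 and 0.942 FPKM, SERPINA1 and APOA1 the hepatocyte list at 3.04 and 0.0587 FPKM, and TEK and STAB2 the endothelial list at 0.211 and 0.0677 FPKM. EPCAM, CDH1, ALB, PTPRC and PECAM1 did not pass the filter, and TTR, APOB, FGB, CLEC4G and LRAT had 0 counts in every library. Since RNA was taken in bulk, fewer cells with a transcript and less of it per cell cannot be told apart.

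YAP1 was the most abundant of the 10 genes, with a mean of 69.4 FPKM over the 6 libraries, and 94.4% of the 16250 genes tested had a lower mean. TEAD4 and TEAD1 followed at 53.7 and 40.5 FPKM, and AMOTL2, an angiomotin family protein that binds YAP, was at 35.1 FPKM. LATS2, WWTR1, TEAD3 and LATS1 lay close together at 18.0, 14.9, 14.7 and 12.9 FPKM. ANKRD1, a cardiac and muscle ankyrin repeat protein widely used as a readout of YAP, was at 10.1 FPKM, and TEAD2 was lowest at 8.33 FPKM. The libraries' ranges separated YAP1 from TEAD4, TEAD4 from TEAD1 and AMOTL2 from LATS2. Elsewhere in the order, the ranges of each gene and the next overlapped, and WWTR1 was above TEAD3 in 3 of 6 libraries.

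**Figure D1:**
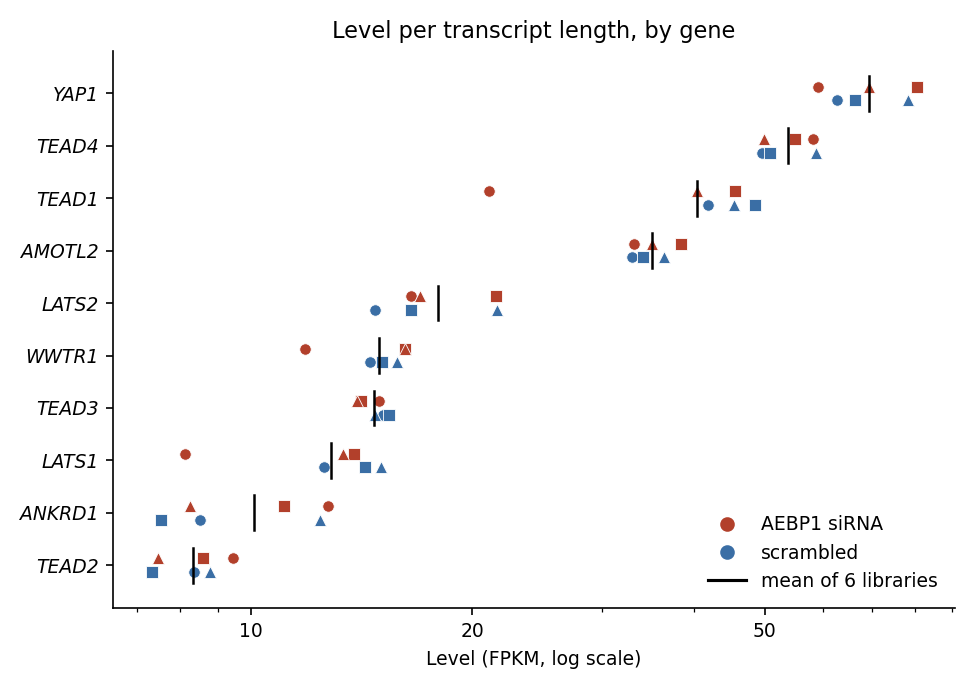
Level of each gene in FPKM on a log axis, with 3 libraries labelled AEBP1 siRNA in red and 3 labelled scrambled in blue (circle, square and triangle for replicates 1, 2 and 3), and the mean of 6 libraries as a black line. YAP1 lies highest at 59.1 to 80.4 FPKM, and the red circles of AEBP1 siRNA 1 lie apart to the left for TEAD1 (21.1 FPKM), LATS1 (8.14 FPKM) and WWTR1 (11.8 FPKM).

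Between the labelled groups, 0 of the 10 genes passed the threshold, an adjusted p under 0.05 by edgeR's quasi-likelihood test over the 16250 genes. The share of those genes that passed was 0.00615%, a single gene, so a count of 0 among 10 is near the background. At an unadjusted p under 0.05 the count was also 0 of 10, where 1.33% of all genes passed, and 0 of the 10 were called by DESeq2 (0.0277% of all genes), by limma-voom (0.0123%) and by edgeR without replicate 3 of both groups (0.00614%). The adjusted p was 0.991 for each of the 10. Log2 fold changes (AEBP1 siRNA over scrambled) ran from -0.25 for LATS1 to 0.16 for ANKRD1, with 5 estimates above 0 and 5 below, and a median of -0.00115 beside -0.00226 over all genes tested. For every one of the 10 genes the CPM values of the groups overlapped, whereas they did not overlap for 5.93% of all genes. The widest 95% intervals were those of TEAD1 and ANKRD1, and 7 of the 10 intervals stayed within a log2 fold change of 0.6 in either direction. Those of TEAD1 and LATS1 reached further on the low side and that of ANKRD1 on the high side.

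**Figure D2:**
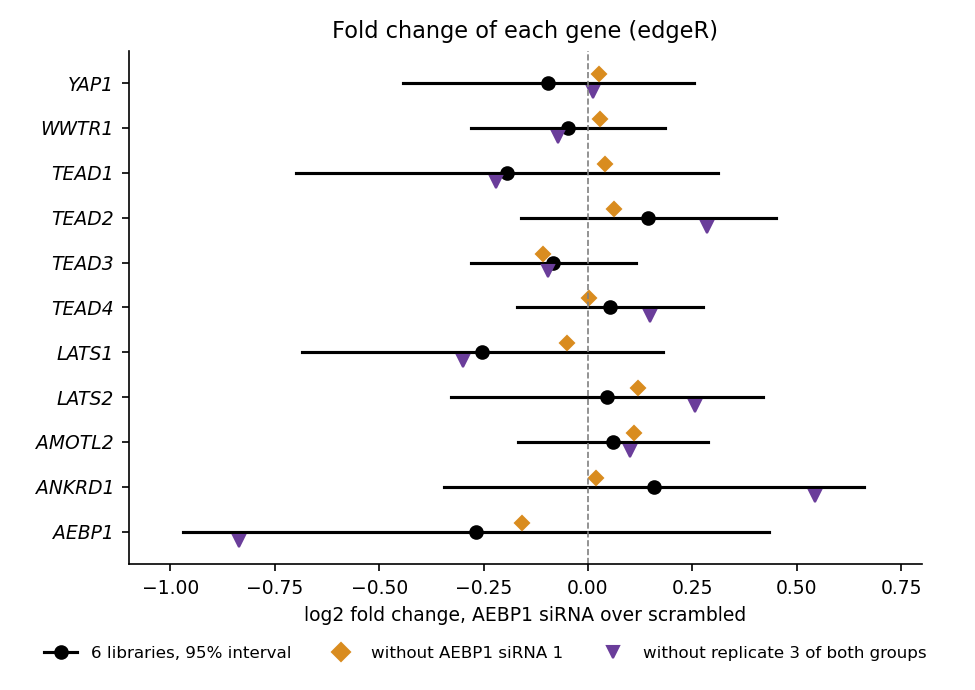
Log2 fold change of each gene and of AEBP1, AEBP1 siRNA over scrambled, from edgeR with 6 libraries and its 95% interval (black), without AEBP1 siRNA 1 (orange diamonds) and without replicate 3 of both groups (purple triangles). Every black interval crosses 0, and the estimate that moves most among the 10 genes is that of ANKRD1, at 0.54 without replicate 3 of both groups and 0.019 without AEBP1 siRNA 1.

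The coactivators differed little between the labelled groups. YAP1 (ENSG00000137693), the main transcriptional effector of the pathway, had 309, 448 and 369 CPM in AEBP1 siRNA 1, 2 and 3, against 367, 383 and 452 CPM in scrambled 1, 2 and 3. AEBP1 siRNA 2 and scrambled 3 were high, AEBP1 siRNA 1 was low, and the groups overlapped. Means were 375 ± 69.7 CPM in AEBP1 siRNA libraries and 401 ± 45.2 CPM in scrambled libraries (SD, n = 3 each). The log2 fold change was -0.095 with a standard error of 0.152 and a 95% interval of -0.44 to 0.25. It was 0.027 without AEBP1 siRNA 1, 0.013 without replicate 3 of both groups and 0.00063 without scrambled 3, so its sign rested on single libraries.

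WWTR1 (ENSG00000018408), the gene of the YAP paralogue TAZ, had 60.7, 72.1 and 71.9 CPM in AEBP1 siRNA 1, 2 and 3, against 67.7, 71.9 and 71.9 CPM in scrambled 1, 2 and 3. AEBP1 siRNA 1 was the lowest and the other 5 lay within a narrow band. The log2 fold change was -0.048 with a standard error of 0.101 and a 95% interval of -0.28 to 0.18. It was 0.030 without AEBP1 siRNA 1 and -0.072 without replicate 3 of both groups. Per transcript length, WWTR1 had 0.200, 0.202 and 0.234 times the level of YAP1 in AEBP1 siRNA 1, 2 and 3, against 0.232, 0.227 and 0.201 times in scrambled 1, 2 and 3. YAP1 transcripts thus outnumbered those of WWTR1 in every library by a similar factor. The difference of the log2 ratios was -0.056 (exact two-sided permutation p = 0.9, where 3 against 3 cannot go below 0.1). It was -0.016 without AEBP1 siRNA 1, -0.13 without AEBP1 siRNA 3 and -0.19 without replicate 3 of both groups. On counts not corrected for length the same difference was 0.054, and the deposited values imply a WWTR1 length of 5.18 kb in AEBP1 siRNA 1 and 4.398 to 4.76 kb in the other 5 libraries.

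**Figure D3:**
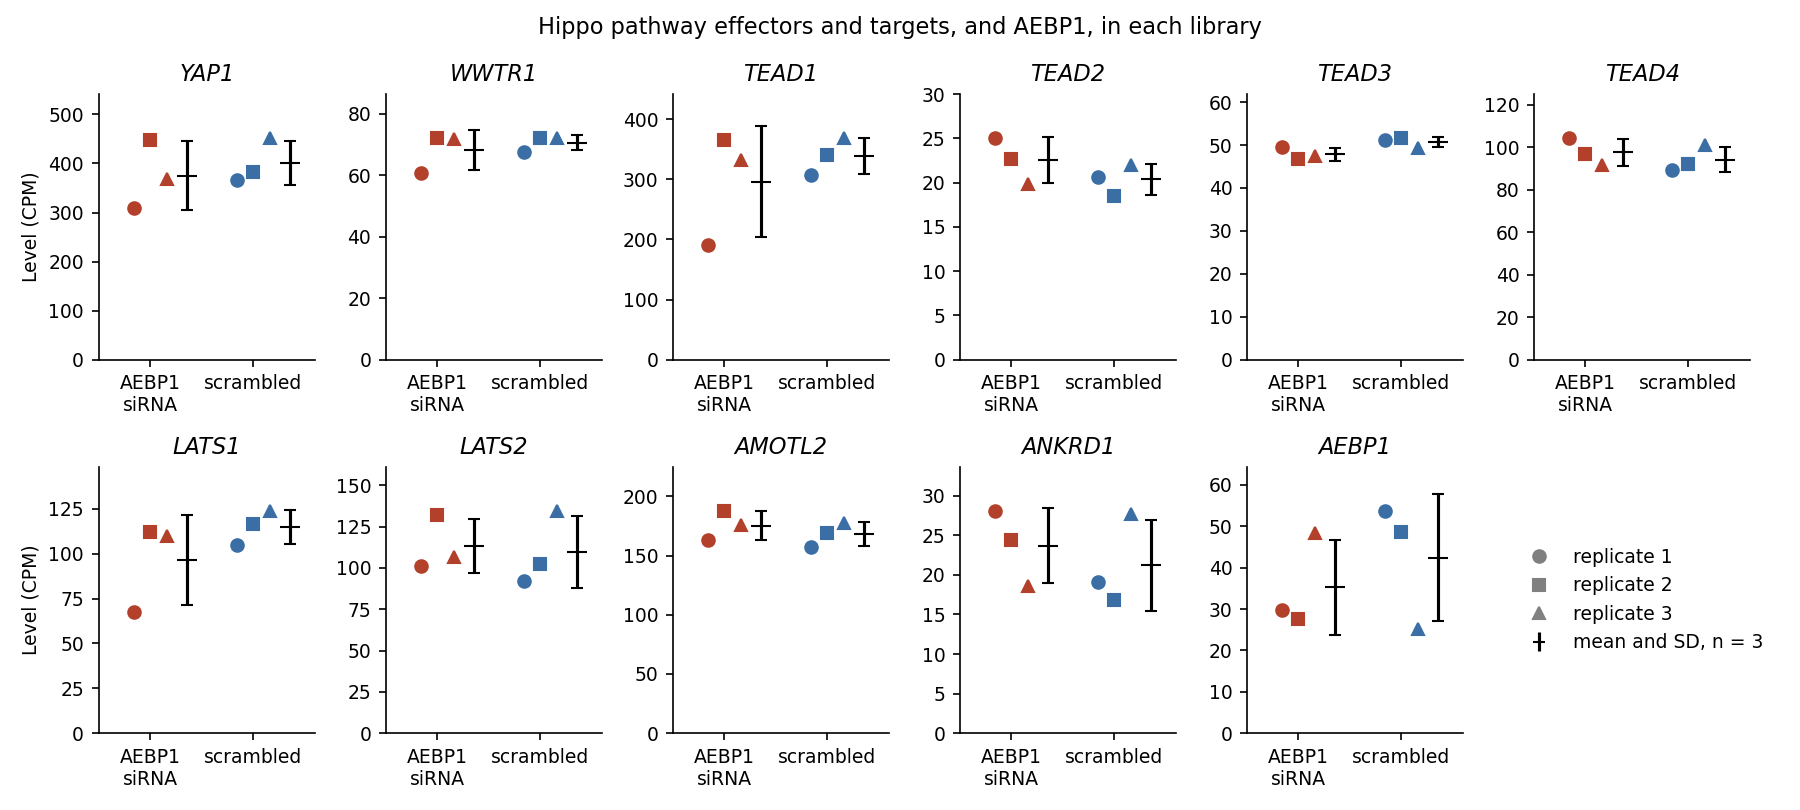
Level in CPM (each axis starts at 0) of the 10 genes and of AEBP1 in libraries labelled AEBP1 siRNA (red, left) and scrambled (blue, right), with circle, square and triangle for replicates 1, 2 and 3 and the mean and SD (n = 3) in black. The groups overlap in every panel, AEBP1 siRNA 1 is lowest for TEAD1 at 191 CPM and for LATS1 at 67.4 CPM, and for AEBP1 the triangle of scrambled 3 lies at 25.1 CPM.

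Among the TEAD factors, which bring YAP and TAZ to DNA, TEAD1 varied most. TEAD1 (ENSG00000187079) had 191, 365 and 333 CPM in AEBP1 siRNA 1, 2 and 3, against 308, 340.1 and 369 CPM in scrambled 1, 2 and 3. The low value of AEBP1 siRNA 1 was the 1 value outside the range of the scrambled libraries, and the highest library was 1.93 times the lowest. Group means were 296 ± 92.4 CPM in AEBP1 siRNA libraries and 339 ± 30.7 CPM in scrambled libraries (SD, n = 3 each). Its log2 fold change was -0.19 with a standard error of 0.22 and a 95% interval of -0.70 to 0.31. It was 0.042 without AEBP1 siRNA 1 and -0.22 without replicate 3 of both groups.

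TEAD4 (ENSG00000197905) had 104, 97.0 and 91.9 CPM in AEBP1 siRNA 1, 2 and 3, against 89.3, 92.3 and 101 CPM in scrambled 1, 2 and 3. Its highest libraries were AEBP1 siRNA 1 and scrambled 3, and the log2 fold change was 0.054 (95% interval -0.17 to 0.28). It was 0.0035 without AEBP1 siRNA 1 and 0.15 without replicate 3 of both groups. TEAD2 (ENSG00000074219) had 25.1, 22.7 and 19.9 CPM in AEBP1 siRNA libraries, against 20.6, 18.5 and 21.97 CPM in scrambled libraries. The lowest TEAD2 value was that of scrambled 2, and the log2 fold change of 0.14 (95% interval -0.16 to 0.45) was 0.062 without AEBP1 siRNA 1 and 0.29 without replicate 3 of both groups. TEAD3 (ENSG00000007866) was the steadiest of the 10 genes, with 49.5, 46.7 and 47.4 CPM in AEBP1 siRNA libraries, against 51.1, 51.7 and 49.4 CPM in scrambled libraries. Its groups overlapped by a narrow margin, AEBP1 siRNA 1 being just above scrambled 3, and the log2 fold change was -0.083 (95% interval -0.28 to 0.11). It was -0.11 without AEBP1 siRNA 1 and -0.095 without replicate 3 of both groups.

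Added together, the TEAD genes had 104, 123 and 112 FPKM in AEBP1 siRNA 1, 2 and 3, against 115, 122 and 128 FPKM in scrambled 1, 2 and 3. TEAD4 held the largest share of this sum in each of the 6 libraries. TEAD1 made up 20.4%, 36.9% and 36.2% of it in AEBP1 siRNA 1, 2 and 3, against 36.5%, 39.7% and 35.6% in scrambled 1, 2 and 3. The share of TEAD1 was low in AEBP1 siRNA 1, where TEAD4 made up 56.1%, and alike in the other 5 libraries. Group means were 31.2% ± 9.36 in AEBP1 siRNA libraries and 37.2% ± 2.17 in scrambled libraries (SD, n = 3 each), a difference of -6.09 percentage points (exact two-sided permutation p = 0.5). The difference was -0.684 percentage points without AEBP1 siRNA 1 and -9.45 percentage points without replicate 3 of both groups. TEAD3 held 11.4% to 14.4% and TEAD2 5.999% to 9.13%.

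**Figure D4:**
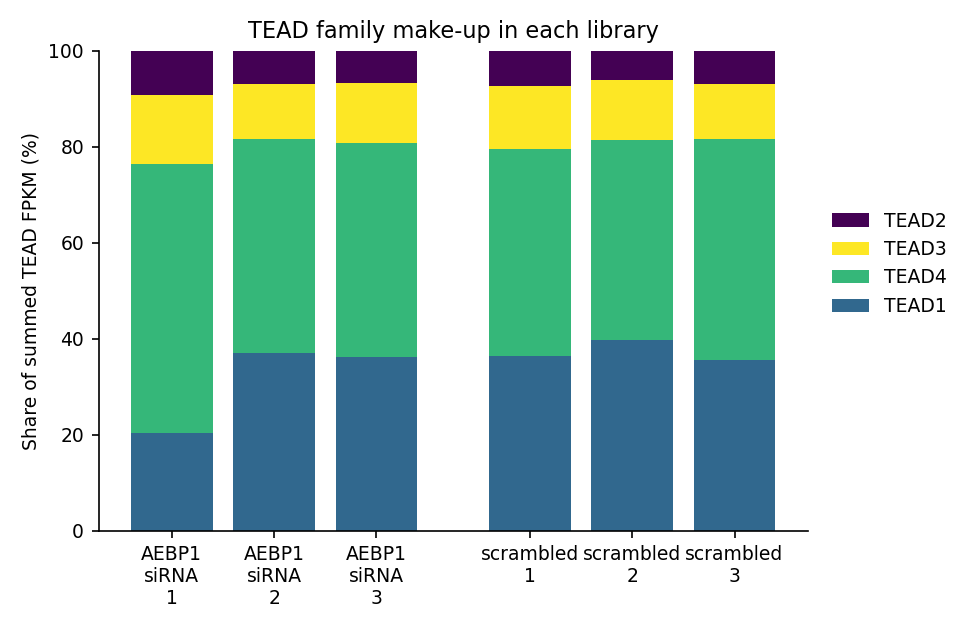
Share of each TEAD gene in the summed TEAD FPKM, one bar per library, with the libraries labelled AEBP1 siRNA on the left and those labelled scrambled on the right. TEAD1 (bottom) makes up 20.4% in AEBP1 siRNA 1 and 35.6% to 39.7% in the other 5 libraries.

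LATS1 and LATS2 are the kinases that inactivate YAP and TAZ. LATS1 (ENSG00000131023) had 67.4, 112 and 109.8 CPM in AEBP1 siRNA 1, 2 and 3, against 105, 117 and 124 CPM in scrambled 1, 2 and 3. AEBP1 siRNA 1 was far below the other 5 libraries, which lay between 105 and 124 CPM. LATS1 averaged 96.5 ± 25.3 CPM in AEBP1 siRNA libraries and 115 ± 9.52 CPM in scrambled libraries (SD, n = 3 each). Its log2 fold change was -0.25 with a standard error of 0.189 and a 95% interval of -0.69 to 0.18. It was -0.050 without AEBP1 siRNA 1 and -0.30 without replicate 3 of both groups.

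LATS2 (ENSG00000150457), which is both a kinase of the pathway and a gene that YAP induces, had 101, 132 and 107 CPM in AEBP1 siRNA 1, 2 and 3, against 92.3, 102 and 134 CPM in scrambled 1, 2 and 3. AEBP1 siRNA 2 and scrambled 3 were high, as they were for YAP1, and the other 4 libraries lay between 92.3 and 107 CPM. The log2 fold change was 0.045 with a standard error of 0.163 and a 95% interval of -0.33 to 0.42, and it was 0.12 without AEBP1 siRNA 1 and 0.26 without replicate 3 of both groups. The LATS2 to LATS1 ratio, from FPKM, was 2.02, 1.56 and 1.27 in AEBP1 siRNA 1, 2 and 3, against 1.17, 1.15 and 1.44 in scrambled 1, 2 and 3. Scrambled 3 lay above AEBP1 siRNA 3, so the groups overlapped, and the difference of the log2 ratios was 0.35 (exact two-sided permutation p = 0.2). That difference was 0.17 without AEBP1 siRNA 1, in which LATS1 was low, and 0.61 without replicate 3 of both groups.

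The targets AMOTL2 and ANKRD1 had different patterns over the libraries. AMOTL2 (ENSG00000114019) had 163, 187 and 176 CPM in AEBP1 siRNA 1, 2 and 3, against 158, 169 and 178 CPM in scrambled 1, 2 and 3. Its values spread by a factor of 1.19 between the highest and the lowest library and the groups overlapped. The log2 fold change was 0.060 with a standard error of 0.0994 and a 95% interval of -0.17 to 0.29. It was 0.11 without AEBP1 siRNA 1, 0.010 without AEBP1 siRNA 2, 0.015 without scrambled 1 and 0.10 without replicate 3 of both groups.

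ANKRD1 (ENSG00000148677) had 28.0, 24.4 and 18.6 CPM in AEBP1 siRNA 1, 2 and 3, against 19.1, 16.8 and 27.7 CPM in scrambled 1, 2 and 3. AEBP1 siRNA 1 and 2 and scrambled 3 were high, and these were also the 3 libraries lowest in AEBP1. How many of all genes were high in the same 3 libraries was not counted, and a link to AEBP1 was not tested. The second principal component over all genes tested (21.4%) also set these libraries apart. Its scores were -1.99 and -34.1 in AEBP1 siRNA 1 and 2 and -26.0 in scrambled 3. They were 17.8 in AEBP1 siRNA 3, and 30.0 and 14.3 in scrambled 1 and 2. Such a split was thus not particular to ANKRD1, which was low in AEBP1 siRNA 3 and scrambled 1 and 2. ANKRD1 means were 23.7 ± 4.73 CPM in AEBP1 siRNA libraries and 21.2 ± 5.71 CPM in scrambled libraries (SD, n = 3 each). The log2 fold change was 0.16 with a standard error of 0.219 and a 95% interval of -0.34 to 0.66. Without replicate 3 of both groups it was 0.54 (unadjusted p = 0.0192, edgeR adjusted p = 0.940), and without AEBP1 siRNA 1 it was 0.019. With replicate 3 of both groups and AEBP1 siRNA 1 left out, a fit in which the single AEBP1 siRNA library is assumed to vary like the scrambled ones, 1.46% of all genes passed the threshold, and 0 of the 10 did. In that fit the log2 estimate of LATS2 was 0.44 (edgeR adjusted p = 0.0733), that of ANKRD1 0.44 (edgeR adjusted p = 0.285) and that of YAP1 0.26 (edgeR adjusted p = 0.253).

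The promoters of YAP1, LATS2 and ANKRD1 are shown because theirs are the windows that hold letters TEAD factors bind. RefSeq windows of 300 bases (250 before to 50 after the annotated start, build GRCh38.p14) were found for 8 of the 10 genes, TEAD1 and TEAD4 being the others. The letters GGAATG, searched on both strands, were in the windows of YAP1, LATS2 and ANKRD1, or 3 of 8, and in 14.0% of all 27305 windows. The ANKRD1 window is chr10:90921038-90921337 on the minus strand and holds them at 2 places, beginning 220 and 128 bases before the start. The YAP1 window is chr11:102110197-102110496 on the plus strand and holds them at 1 place, beginning 162 bases before the start. The LATS2 window is chr13:21061537-21061836 on the minus strand and holds them at 1 place, beginning 9 bases after the start. These windows are written 5′ to 3′ on the strand of the gene, with GGAATG in capitals.
YAP1: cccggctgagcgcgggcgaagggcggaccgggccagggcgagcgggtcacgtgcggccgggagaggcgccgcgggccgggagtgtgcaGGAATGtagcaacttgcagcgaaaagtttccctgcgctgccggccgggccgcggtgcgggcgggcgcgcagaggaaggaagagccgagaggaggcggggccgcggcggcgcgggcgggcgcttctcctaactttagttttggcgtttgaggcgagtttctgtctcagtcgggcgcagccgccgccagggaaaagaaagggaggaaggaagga
ANKRD1: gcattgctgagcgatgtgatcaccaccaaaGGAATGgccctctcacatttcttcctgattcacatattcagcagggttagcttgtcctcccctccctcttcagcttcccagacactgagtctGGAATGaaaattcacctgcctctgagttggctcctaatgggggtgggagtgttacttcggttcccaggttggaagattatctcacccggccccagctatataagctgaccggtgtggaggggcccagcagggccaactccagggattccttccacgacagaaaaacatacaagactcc
LATS2: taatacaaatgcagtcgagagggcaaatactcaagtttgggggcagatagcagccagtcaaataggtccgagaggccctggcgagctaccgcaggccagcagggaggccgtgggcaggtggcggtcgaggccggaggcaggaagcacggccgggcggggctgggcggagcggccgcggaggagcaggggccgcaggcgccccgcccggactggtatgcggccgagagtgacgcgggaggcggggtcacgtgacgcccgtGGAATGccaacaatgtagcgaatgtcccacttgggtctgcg
The letters TGANTCA (N is any base), looser than the AP-1 site TGASTCA (S is C or G), were searched on both strands. They were in the ANKRD1 window as well, 195 bases before the start, and in 7.76% of all windows. That match reads TGATTCA, with T in the middle, so it is not the AP-1 site itself. The window of AMOTL2 held neither GGAATG nor TGANTCA. Which start these cells used was not measured, and a match of letters describes the sequence and not a bound site.

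By a rule on likeness, the genes whose log2 CPM followed a target most closely over the 6 libraries were looked up among 11066 others with a mean of at least 5 CPM. For ANKRD1 these were GUCD1, RPE and YTHDF2, with a Pearson r of 0.996, 0.991 and 0.990, which only describes these 6 libraries. For AMOTL2 they were SARM1, KIAA0895L and TBC1D8, with 0.988, 0.979 and 0.979. Among the other 9 Hippo genes, TEAD4 and TEAD2 were nearest to ANKRD1, with 0.913 and 0.912, followed by LATS2 with 0.550. YAP1 had 0.090 with ANKRD1, and WWTR1, LATS1, TEAD1 and TEAD3 had -0.427, -0.409, -0.356 and -0.346. LATS2 and YAP1 were nearest to AMOTL2, with 0.890 and 0.750, and TEAD3 was farthest from it, with -0.769. ANKRD1 and AMOTL2 had 0.236 with each other.

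AEBP1 siRNA 1 set the low end for YAP1, WWTR1, TEAD1 and LATS1, and the high end for TEAD2, TEAD4 and ANKRD1. It was the lowest of the 6 libraries for 4 of the 10 genes, beside 32.7% of all genes tested, and the highest for 3 of the 10, beside 32.2%. Over all genes its differences ran with implied length, and among the 10 genes they did so unevenly. The length implied by counts and FPKM was 8.10 kb for TEAD1 and 8.22 kb for LATS1, whose log2 CPM in AEBP1 siRNA 1 minus the mean of the other 5 libraries was -0.84 and -0.75. For ANKRD1 and TEAD2, at 2.23 and 2.58 kb, the differences were 0.42 and 0.28. For LATS2, YAP1 and AMOTL2, at 6.20, 5.67 and 4.91 kb, they were -0.15, -0.38 and -0.088. For WWTR1, TEAD3 and TEAD4, at 4.61, 3.36 and 1.80 kb, they were -0.23, 0.010 and 0.15. Over all genes tested, the median difference was 0.32 in the 3250 genes with the shortest implied length and -0.39 in the 3250 with the longest, which held YAP1, TEAD1, LATS1 and LATS2. The length trend was thus a feature of that library over all genes, and its part in the differences of single genes was not tested.

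**Figure D5:**
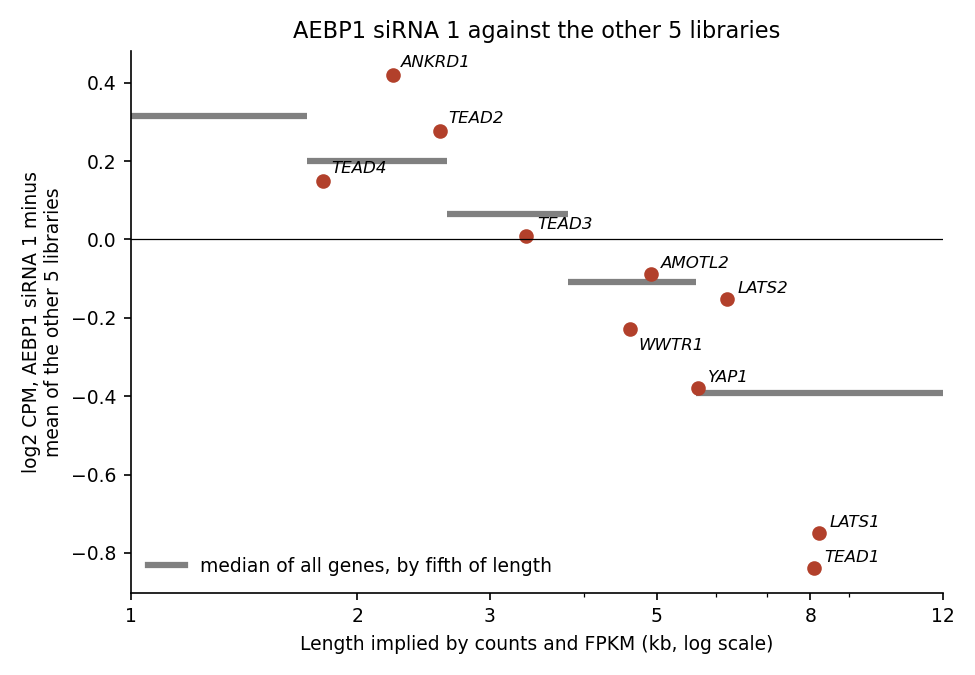
Difference in log2 CPM between AEBP1 siRNA 1 and the mean of the other 5 libraries (vertical axis) against the length implied by counts and FPKM (log axis, drawn from 1 to 12 kb) for the 10 genes, with grey bars for the median of all genes in 5 length classes of 3250 genes each. TEAD1 and LATS1 lie lowest, at -0.84 and -0.75, and the grey medians run from 0.32 for the shortest to -0.39 for the longest genes.

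Of 17 genes listed for the upstream kinase module, 17 were tested and 0 passed the threshold. Estimates were lower in AEBP1 siRNA libraries for 16 of them. The median estimate of the 17 was -0.076 on the log2 scale. Over all genes tested, 49.4% had higher estimates. AEBP1 siRNA 1 was the lowest library for 12 of the 17, beside 32.7% of all genes tested. In it the list's median deviation from the mean of the 6 libraries was -0.28. That deviation was 0.087 and 0.082 in AEBP1 siRNA 2 and 3, and -0.000348, 0.059 and 0.087 in scrambled 1, 2 and 3. The part of AEBP1 siRNA 1 in these estimates was not tested. FRMD6, the human relative of the fly Hippo regulator Expanded, led the list at a mean of 101 FPKM, with 404, 562 and 545 CPM in AEBP1 siRNA libraries against 507, 529 and 558 CPM in scrambled libraries. MOB1A, the adaptor that activates LATS kinases, had 276, 341 and 308 CPM in AEBP1 siRNA libraries against 307, 321 and 347 CPM in scrambled libraries. MAP4K5, a kinase that can act in parallel to MST1 and MST2, had 167, 235 and 207 CPM in AEBP1 siRNA libraries against 199.6, 201 and 219 CPM in scrambled libraries. In these 3 genes AEBP1 siRNA 1 was the lowest library, and the groups overlapped.

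Cofactors and regulators of YAP and TAZ gave a like picture, with 0 called of 24 tested among 25 listed. Estimates were lower for 17 of them in AEBP1 siRNA libraries, the median being -0.12 on the log2 scale, and AEBP1 siRNA 1 was the lowest library for 16. Over all genes tested, 49.4% had higher estimates and AEBP1 siRNA 1 was lowest for 32.7%. AJUBA, a LIM protein that binds LATS kinases, had 229, 239 and 243 CPM in AEBP1 siRNA libraries against 249, 234 and 236 CPM in scrambled libraries. DLG1, a cell polarity scaffold, had 148, 217 and 194 CPM in AEBP1 siRNA libraries against 208, 207 and 212 CPM in scrambled libraries. CSNK1D, a casein kinase that helps mark YAP for degradation, had 193, 179.7 and 183 CPM in AEBP1 siRNA libraries against 189, 174 and 182 CPM in scrambled libraries. VGLL1, which binds TEAD factors in place of YAP, had 0 counts in every library and was not tested. CSNK1E, named after its values were seen, was the 1 gene of this list with groups that did not overlap, at 119, 112 and 117 CPM in AEBP1 siRNA libraries against 99.5, 108 and 106 CPM in scrambled libraries. Over all genes tested, 3.03% were higher in AEBP1 siRNA libraries without overlap.

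Other targets of YAP and TEAD were split, with 9 estimates above 0 and 9 below among 18 tested of 19 listed. Their median was -0.00945 on the log2 scale, and 0 genes were called. FOXF2, a forkhead factor, was below the filter. CCN1, a secreted matricellular protein and a standard YAP readout, had 521, 436 and 339 CPM in AEBP1 siRNA 1, 2 and 3, against 354, 320.2 and 449 CPM in scrambled 1, 2 and 3. Its high libraries were those that were high for ANKRD1, and its log2 fold change was 0.21 (edgeR adjusted p = 0.991). GADD45A, a stress-induced growth arrest gene, had 804, 656 and 740.3 CPM in AEBP1 siRNA libraries against 788, 702 and 595 CPM in scrambled libraries. AXL, a receptor tyrosine kinase, had 659, 728 and 728 CPM in AEBP1 siRNA libraries against 709, 749 and 697 CPM in scrambled libraries. GADD45A and AXL did not share the order of CCN1 over the libraries. CCN2 and IGFBP3, named after their values were seen, did share it, and no other tested target of this list did. In IGFBP3, AEBP1 siRNA 2 and scrambled 1 were nearly tied at 13.5 and 13.4 CPM. The share of all genes with that order was not counted, so it is not shown to be particular to targets of YAP.

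Genes of the SRF and MRTF axis, which answers to actin and shares some targets with YAP, had higher estimates for 14 of 17 tested in AEBP1 siRNA libraries, with a median of 0.086 on the log2 scale and 0 called. Over all genes, 49.4% had higher estimates. AEBP1 siRNA 1 was the highest library for 13 of the 17, beside 32.2% of all genes. The list's median deviation was 0.33 in it and between -0.13 and 0.047 in the other 5 libraries. The part of AEBP1 siRNA 1 in these estimates was not tested. ACTB and ACTG1, the cytoplasmic actins, had 1605, 1352 and 1083 CPM and 1610, 1368 and 1046 CPM in AEBP1 siRNA 1, 2 and 3, against 1025, 1054 and 1323 CPM and 996, 1024 and 1350.1 CPM in scrambled 1, 2 and 3. Both actins were high in the same 3 libraries as ANKRD1. TPM1, a tropomyosin of actin filaments, had 615, 512 and 514 CPM in AEBP1 siRNA libraries against 516, 504 and 527 CPM in scrambled libraries. ZYX, a focal adhesion protein named after its values were seen, was the 1 gene of this list without overlap in CPM (3.03% of all genes were higher without overlap), at 221, 170.1 and 171 CPM in AEBP1 siRNA libraries against 169, 150.02 and 170 CPM in scrambled libraries. In FPKM the groups overlapped for ZYX. CNN1, a calponin of smooth muscle also named after its values were seen, was the 1 gene of this list without overlap in FPKM, at 16.2, 12.2 and 14.3 FPKM in AEBP1 siRNA libraries against 12.1, 11.6 and 10.5 FPKM in scrambled libraries. Over all genes, 3.43% were higher without overlap in FPKM. AP-1 factors, which often sit beside TEAD factors on enhancers, had higher estimates for 7 of 9 (49.4% over all genes), a median of 0.16 on the log2 scale and 0 called. AEBP1 siRNA 1 was the highest library for 7 of the 9, beside 32.2% of all genes. Their median deviation was 0.25 in it and between -0.11 and 0.075 in the other 5 libraries, and its part in these estimates was not tested. FOSL1 had 364, 316 and 335 CPM in AEBP1 siRNA libraries against 335, 295 and 270.5 CPM in scrambled libraries, JUN had 495, 455 and 447 CPM against 457, 416 and 436 CPM, and JUNB had 141, 107 and 131 CPM against 135, 112 and 92.5 CPM.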

How the data were processed

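RNA sequencing of 6 libraries was deposited as a table of raw counts and FPKM per gene. The authors' counts and FPKM values were used as deposited, with units per the file headers. Per the submitters' processing notes the build was hg19. Alignment, counting, filters, annotation and strand setting were not given in the sources used here. Lines without values (17) were left out, and 27 symbols turned into dates were restored by gene ID.

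Counts were filtered with filterByExpr, scaled by trimmed mean of M values and compared between groups by edgeR 4.0.16 (quasi-likelihood test, R 4.3.3, no covariate). P-values were adjusted by Benjamini and Hochberg's method over 16250 genes, and the threshold was 0.05. DESeq2 1.42.0 and limma 3.58.1 served as alternatives. The test was also run on simulated counts with planted changes, which held no outlying library and no length trend. That run does not show how the test behaves with such features. Ratios and shares used FPKM and exact permutation tests, 3 in number and not adjusted. Implied length is counts divided by FPKM and by the library's total count, in kb. The smallest chi-square per degree of freedom between libraries was 7.78, for AEBP1 siRNA 2 and scrambled 3, so no library was a copy of another.

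The genes and lists were chosen with earlier results of these data known. From each list the 3 genes with the highest mean FPKM were named, from marker lists 2, and any gene with an unadjusted p under 0.05, of which there was 0. Reported intervals are edgeR's.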

Additional observations from a re-analysis of the deposited data

How the results depend on the processing

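Under every alternative run, 0 of the 10 genes were called. Over all genes, 1 was called, against 2 with a replicate block, 3 with no filter, 6 with DESeq2, 2 with limma-voom, 3 with limma on log2(FPKM + 0.1) and 249 with AEBP1 siRNA 1 and both replicates 3 left out, where AEBP1 passed at -0.884. Leaving out single libraries gave 0 to 2 genes, and AEBP1 at -0.567 to -0.066. The replicate numbers were not taken as pairs, since same-numbered libraries' deviations correlated at 0.0961, -0.00776 and -0.102, and the replicate block changed no call among the 10 genes.

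Without single libraries, log2 fold changes ran from -0.242 to 0.0269 for YAP1, -0.0893 to 0.0299 for WWTR1, -0.37 to 0.0416 for TEAD1, -0.376 to -0.0502 for LATS1 and -0.0784 to 0.217 for LATS2. YAP1 was 0.0129 without replicate 3 of both groups, 0.00645 on log2(FPKM + 1) and 0.00647 on log2(FPKM + 0.1). TEAD1 was -0.402 on log2(FPKM + 1) and -0.414 on log2(FPKM + 0.1), beside -0.194 on counts. With AEBP1 siRNA 1 and both replicates 3 left out, estimates were 0.257 for YAP1, 0.0479 for WWTR1, 0.172 for TEAD1, 0.0225 for LATS1 and 0.436 for LATS2. The WWTR1 to YAP1 difference was 0.054 on counts. On counts the TEAD1 share difference was -4.50 percentage points, beside -6.09 on FPKM. The causes of these shifts were not tested. For the 10 genes, 156 values under alternatives kept their sign and 14 reversed. The printed intervals rest on the spread among 3 libraries a group as labelled, which may be purely technical.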
